A study of Mus musculus with 10 samples.

Results

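The Myc and Mxd network comprises transcription factors that pair with Max or its relative Mlx. Its 10 members examined here are Myc, Mycn, Max, Mxd1, Mxd3, Mxd4, Mxi1, Mnt, Mlx and Mga, taken by gene symbol from the 19937 named genes of the array. Each of the 10 was represented by 1 probe set, and all 10 were among the 13138 genes tested. RNA came from CD4 CD8 double-positive (DP) thymocytes, immature T cells that are rearranging the alpha chain of their T cell receptor, sorted from the thymuses of individual mice aged 8 weeks. The DKO mice were E2Aflox/flox HEBflox/flox cd4-cre+ (n = 3), the HEBKO mice HEBflox/flox cd4-cre+ (n = 2), the E2AKO mice E2Aflox/flox Cd4-cre+ (n = 2) and the WT controls wild-type cd4-cre+ (n = 3). All 10 mice therefore carried a Cre transgene named for Cd4, whose control sequences are known to switch on around the entry into the DP stage. Cre cuts the floxed genes of E2A (Tcf3) and HEB (Tcf12), both basic helix-loop-helix transcription factors, so the loss dates from about that stage.

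Myc and Mycn pair with Max on the DNA sequence CACGTG, an E-box, and activate genes of ribosome production, metabolism and growth. Mxd1, Mxi1, Mxd3, Mxd4 and Mnt compete for Max and bring the Sin3 corepressor to the same sequence. Mga also pairs with Max and belongs to a Polycomb complex, while Mlx pairs with some Mxd proteins and Mnt and with the glucose-sensing Mondo proteins. In the thymus, Myc is known for growth and division around the step at which cells become DP, and most DP cells are small and resting.

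Values are log2 intensities, in which 1 unit is a 2-fold difference, and levels of different probe sets are not set against each other. A gene passed the test, or was called, at an adjusted p under 0.05 in limma, a linear model that pools the spread over genes, with p adjusted over all 13138 genes. Tcf3 lay between 8.93 and 9.29 in DKO arrays and at 9.12 and 9.23 in E2AKO arrays, against 9.63 to 9.85 in WT arrays. Tcf12 lay between 10.68 and 10.73 in DKO arrays and at 11.15 and 11.48 in HEBKO arrays, against 11.74 to 11.86 in WT arrays. In DKO against HEBKO, Tcf12 was at -0.61 ± 0.12 (limma adjusted p = 0.0136). Arrays described below as lacking HEB are grouped by genotype and so differ in Tcf12 signal. The deleted exons are not given in the sources used here, so the remaining signal does not measure intact messenger RNA. The summed linear intensity of 12 DP markers (of 13 listed, none under an array's 40th percentile throughout a group) was 29091 to 34325 in DKO, 39532 to 51942 in HEBKO, 53356 to 55584 in E2AKO and 53839 to 56686 in WT. For 7 markers of mature T cells (of 8 listed) the sum was 4110 to 5616 in DKO, 773 to 1430 in HEBKO, 724 to 932 in E2AKO and 793 to 837 in WT. All 7 mature markers passed the test as higher in DKO than in WT, and 7 of the 12 DP markers passed as lower. Of 7 myeloid markers 5, and of 6 B cell markers 3, lay under that percentile in every array of all 4 genotypes. In DKO against WT, 2 of 3 tested markers of NK and innate-like T cells passed as higher (sum of 8 markers 600 to 770 in DKO, 560 to 809 in HEBKO, 475 to 527 in E2AKO and 532 to 591 in WT), while Klrb1c, Klrd1, Gzmb and Eomes lay under the percentile in every array. Of 8 tested double-negative thymocyte markers 1 passed as higher. The sums of 9 such markers were 1001 to 1221 in DKO, 807 to 935 in HEBKO, 807 to 888 in E2AKO and 835 to 964 in WT. The network member Mycn is 1 of these 9 and was not the marker that passed. Thymic epithelium had 2 of 5 tested markers lower, with sums of 7 markers of 734 to 889 in DKO and 1071 to 1167 in WT, and 1 of 3 tested B cell and 1 of 2 tested myeloid markers passed as lower. The part of these marker shifts in the differences below was not tested. In sorted cells measured in bulk, fewer cells of a type and less RNA per cell cannot be told apart.

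**Figure D1:**
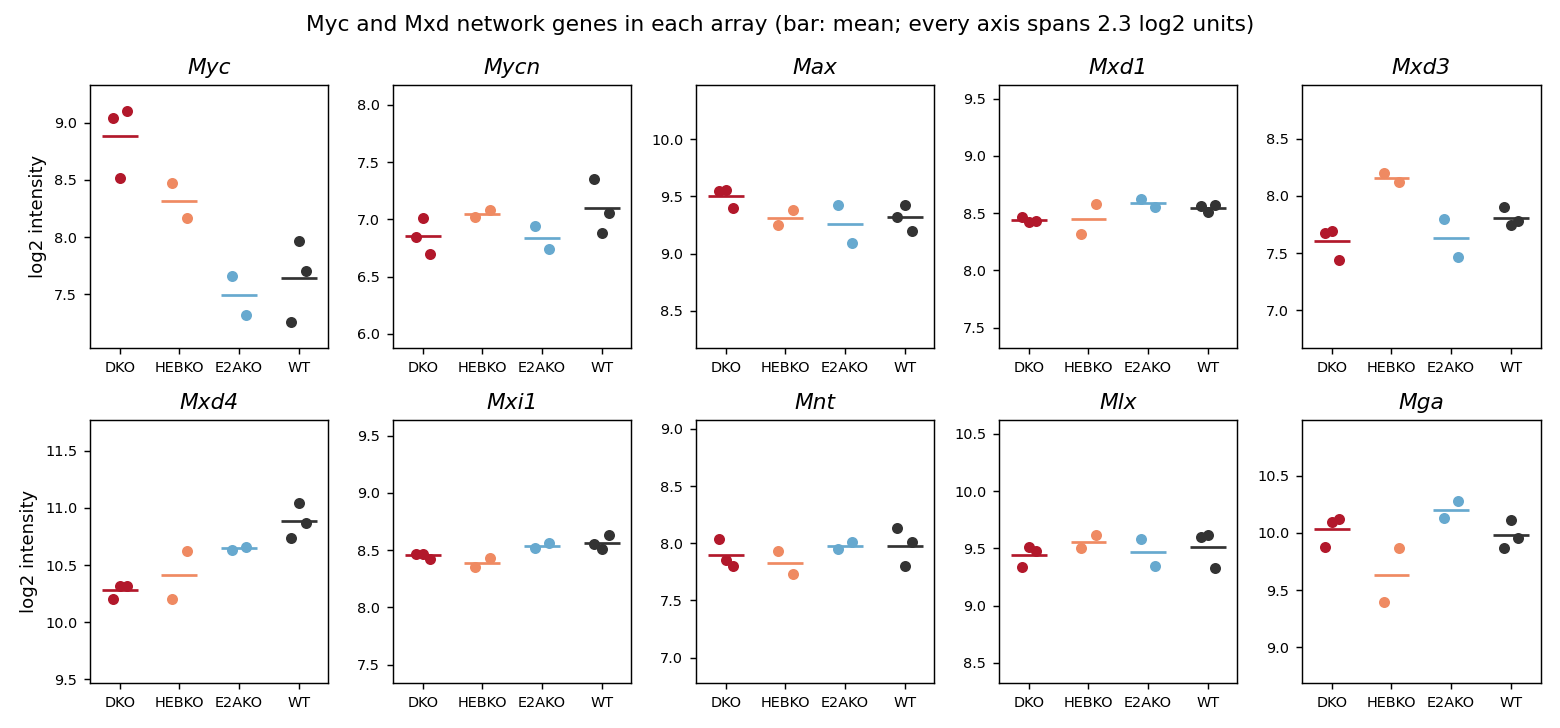
Log2 intensity (vertical axis, every panel spanning 2.3 units) of the 10 network genes in each array, with DKO, HEBKO, E2AKO and WT from left to right; points are arrays and horizontal bars are genotype means. Myc stood highest in DKO (8.52 to 9.10), Mxd3 highest in HEBKO (8.12 and 8.20) and Mxd4 highest in WT (10.74 to 11.04).

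Myc was higher and its antagonist Mxd4 lower in DP cells that lacked both E2A and HEB, while the other 8 members did not pass the test against WT. That is 2 of 10 members, 1 in each direction, beside 13.6% of all genes tested (8.18% higher and 5.41% lower), a share near that of the array as a whole. The values of DKO and WT arrays did not overlap for 5 of 10 members (Myc, Mxd1, Mxd3, Mxd4 and Mxi1), beside 30.0% of all genes tested. The median difference over the 10 members was -0.10, beside -0.01 over all genes.

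Myc (probe set 10424400) read 9.04, 8.52 and 9.10 in DKO 1 to 3, 8.47 and 8.17 in HEBKO 1 and 2, 7.66 and 7.32 in E2AKO 1 and 2, and 7.26, 7.97 and 7.70 in WT 1 to 3. Every DKO array lay above every other array, both HEBKO arrays lay above all E2AKO and WT arrays, and the E2AKO and WT values overlapped. The genotype means were 8.89 ± 0.32 in DKO, 8.32 ± 0.21 in HEBKO, 7.49 ± 0.24 in E2AKO and 7.64 ± 0.36 in WT (SD), so geometric mean intensity was 237% of WT in DKO, 160% in HEBKO and 90.1% in E2AKO. Myc rose by 1.25 ± 0.20 in DKO against WT (log2, SE; 95% interval 0.82 to 1.67; limma adjusted p = 0.00136), which placed it at rank 403 of 13138 genes by p. In HEBKO the difference from WT was 0.68 ± 0.22 (0.20 to 1.16; limma adjusted p = 0.153), and in E2AKO it was -0.15 ± 0.22 (-0.63 to 0.33; limma adjusted p = 0.998).

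Set against the single knockouts, Myc was 1.40 ± 0.22 higher in DKO than in E2AKO and passed the test (limma adjusted p = 0.00190). This was the 1 member of 10 called in that comparison, beside 9.07% of all genes. The difference between DKO and HEBKO was 0.57 ± 0.22 (0.09 to 1.05; limma adjusted p = 0.225) and that between HEBKO and E2AKO 0.83 ± 0.24 (0.31 to 1.36; limma adjusted p = 0.143), and neither passed. In the order DKO, HEBKO, WT, E2AKO, therefore, no 2 neighbours differed past the test, while DKO differed from WT and from E2AKO. The interaction DKO - E2AKO - HEBKO + WT, which is 0 where the log2 effects of the single losses add up, was 0.72 ± 0.31 (0.04 to 1.40; limma adjusted p = 0.538).

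Mxd4, a repressor that competes with Myc for Max, is shown with the 250 bases before its start because the sequence holds the network's own binding motif. The bases are from RefSeq (build GRCm38.p6, chr5:34187711-34187960, minus strand, written 5′ to 3′ towards the start), with CACGTG in capitals, and the match begins 219 bases before the start.
Mxd4: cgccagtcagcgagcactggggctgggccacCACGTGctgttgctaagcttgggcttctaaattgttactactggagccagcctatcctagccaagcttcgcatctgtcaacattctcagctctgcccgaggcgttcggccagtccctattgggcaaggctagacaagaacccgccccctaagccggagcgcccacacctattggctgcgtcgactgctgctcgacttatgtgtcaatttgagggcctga

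Mxd4 (probe set 10529375) read 10.20, 10.32 and 10.32 in DKO 1 to 3, 10.20 and 10.62 in HEBKO 1 and 2, 10.63 and 10.66 in E2AKO 1 and 2, and 10.74, 11.04 and 10.87 in WT 1 to 3. Every knockout array lay below every WT array. The 2 HEBKO arrays spanned the DKO range, HEBKO 1 matching the lowest DKO array and HEBKO 2 lying just under the E2AKO arrays. Means were 10.28 ± 0.07 in DKO, 10.41 ± 0.30 in HEBKO, 10.65 ± 0.03 in E2AKO and 10.88 ± 0.16 in WT (SD), or 66.0% of the geometric mean WT intensity in DKO, 72.1% in HEBKO and 84.9% in E2AKO. In DKO against WT, Mxd4 fell by 0.60 ± 0.12 (log2, SE; 95% interval -0.86 to -0.34; limma adjusted p = 0.00639). The difference from WT was -0.47 ± 0.14 in HEBKO (-0.77 to -0.18; limma adjusted p = 0.122) and -0.24 ± 0.14 in E2AKO (-0.53 to 0.06; limma adjusted p = 0.998). Between genotypes that lacked a factor, Mxd4 differed by -0.13 ± 0.14 for DKO against HEBKO, -0.36 ± 0.14 for DKO against E2AKO (limma adjusted p = 0.132) and -0.24 ± 0.15 for HEBKO against E2AKO, none past the test. No 2 neighbours in the order WT, E2AKO, HEBKO, DKO differed past the test.

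Myc and Mxd4 were then followed in each array as differences from their own WT means, a pair chosen after their values were seen and given without a test. Myc minus Mxd4 was 2.09, 1.43 and 2.02 in DKO 1 to 3, 1.51 and 0.79 in HEBKO 1 and 2, 0.27 and -0.10 in E2AKO 1 and 2, and -0.24, 0.17 and 0.07 in WT 1 to 3. All 5 arrays that lacked HEB stood above all 5 arrays that kept it, and HEBKO 1 stood above DKO 2. DKO 2 was the DKO array with the smallest Myc difference (0.87), and HEBKO 2 lay nearer to WT than HEBKO 1 for both genes.

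**Figure D2:**
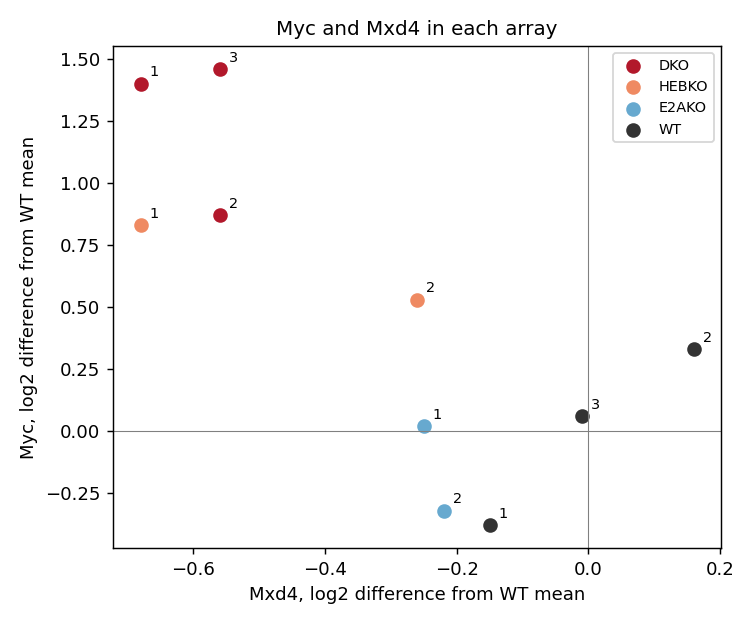
Each array's Myc (vertical axis) against its Mxd4 (horizontal axis), both as log2 differences from the WT mean, with points coloured by genotype and numbered by replicate. The 3 DKO arrays sit at 0.87 to 1.46 for Myc and -0.68 to -0.56 for Mxd4, HEBKO 1 sits at the same Mxd4 value as DKO 1, and the WT arrays lie around 0.

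Mxd3, a member known from other mouse tissues for expression in dividing cells, differed between the knockouts. It read 7.68, 7.69 and 7.44 in DKO 1 to 3, 8.20 and 8.12 in HEBKO 1 and 2, 7.80 and 7.47 in E2AKO 1 and 2, and 7.90, 7.75 and 7.78 in WT 1 to 3. Both HEBKO arrays lay above every other array and all DKO arrays lay below every WT array, while the E2AKO arrays spanned most of the DKO and WT values. Means were 7.60 ± 0.14 in DKO, 8.16 ± 0.06 in HEBKO, 7.64 ± 0.24 in E2AKO and 7.81 ± 0.08 in WT (SD).

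In DKO against HEBKO, Mxd3 fell by 0.56 ± 0.13 (95% interval -0.83 to -0.28; limma adjusted p = 0.0312), the 1 of 10 members called there, beside 3.63% of all genes. The call was lost without WT 3, without either HEBKO array or without any 1 of the 3 DKO arrays (-0.60 to -0.48). Against WT, Mxd3 was at 0.35 ± 0.13 in HEBKO (0.07 to 0.62; limma adjusted p = 0.192) and at -0.21 ± 0.11 in DKO (-0.45 to 0.04; limma adjusted p = 0.278). HEBKO stood 0.53 ± 0.14 above E2AKO (0.23 to 0.82; limma adjusted p = 0.116). In the order HEBKO, WT, E2AKO, DKO, no 2 neighbours differed past the test.

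Genes of DNA replication had their highest medians in the same HEBKO arrays. The median over 22 listed replication genes, as a difference from the WT mean, was 0.10, 0.13 and -0.32 in DKO 1 to 3, 0.58 and 0.58 in HEBKO 1 and 2, 0.21 and -0.34 in E2AKO 1 and 2, and -0.15, 0.26 and -0.11 in WT 1 to 3. DKO 3 and E2AKO 2, the arrays with the lowest replication medians, also had the lowest Mxd3 values (7.44 and 7.47). Among the WT arrays the order was reversed, with WT 2 highest for replication and lowest for Mxd3. DKO 1 and 2 were above the WT mean for replication but below it for Mxd3 (-0.13 and -0.12). For DKO against HEBKO, all 22 replication genes were on the negative side (median -0.57, range -0.79 to -0.29), as were all 19 mitosis genes (median -0.64), with 0 genes of either list called by limma and a median of 0 over all genes. At an unadjusted p under 0.05 there were 17 of the 22 and all 19, a threshold at which the share of all genes was not computed. The part of cell division in the Mxd3 difference was not tested.

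**Figure D3:**
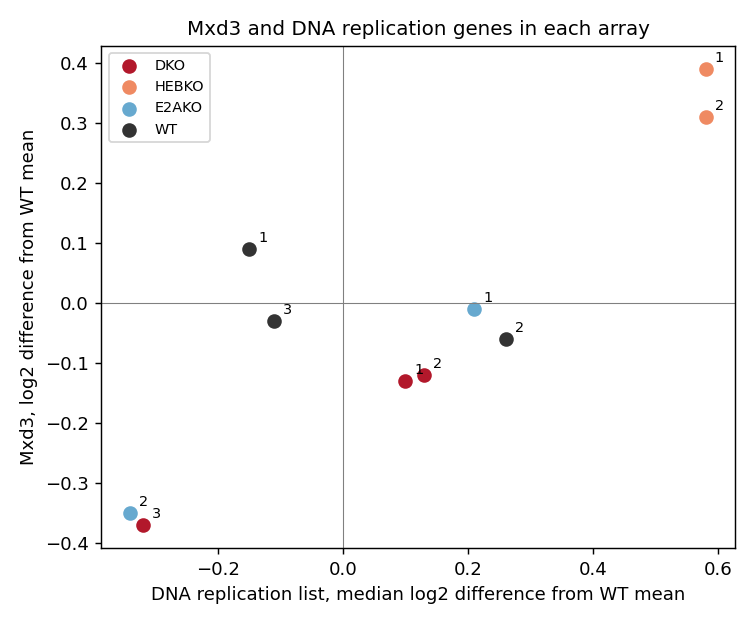
Each array's Mxd3 (vertical axis) against the median of 22 DNA replication genes (horizontal axis), both as log2 differences from the WT mean; points are coloured by genotype and numbered by replicate. HEBKO 1 and 2 sit apart at the upper right (0.39 and 0.31 for Mxd3, 0.58 for replication), and DKO 3 and E2AKO 2 sit at the lower left. WT 2, E2AKO 1, DKO 1 and DKO 2 lie above the WT mean for replication and below it for Mxd3.

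Mxd1 and Mxi1 did not pass the test in any comparison. Mxd1, which is induced in many cell types as they stop dividing, read 8.47, 8.42 and 8.43 in DKO arrays, 8.32 and 8.58 in HEBKO, 8.62 and 8.55 in E2AKO and 8.56, 8.51 and 8.57 in WT arrays. Its DKO values lay just below the WT values, and the difference of -0.11 ± 0.09 did not pass the test (-0.31 to 0.09; limma adjusted p = 0.517). Mxi1 read 8.47, 8.47 and 8.42 in DKO, 8.35 and 8.43 in HEBKO, 8.52 and 8.56 in E2AKO and 8.55, 8.51 and 8.63 in WT. All 5 arrays lacking HEB were below all 5 that kept it, at -0.11 ± 0.08 in DKO (limma adjusted p = 0.443) and -0.17 ± 0.09 in HEBKO against WT (limma adjusted p = 0.386). The share of all genes split in this way was not computed.

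Mnt, the repressor found in most cell types irrespective of division, ranged from 7.80 to 8.04 in DKO, 7.73 to 7.93 in HEBKO, 7.95 to 8.01 in E2AKO and 7.80 to 8.13 in WT. All 3 knockout groups overlapped WT, while both HEBKO values lay just below both E2AKO values. Its differences from WT were -0.08 in DKO (95% interval -0.33 to 0.16), -0.15 in HEBKO (-0.42 to 0.12) and 0 in E2AKO (-0.27 to 0.27). A fall as large as that of Mxd4 in DKO (0.60) lies outside all 3 intervals. Mga, the largest protein of the network, read 9.88, 10.10 and 10.12 in DKO, 9.40 and 9.87 in HEBKO, 10.13 and 10.28 in E2AKO and 9.87, 10.11 and 9.96 in WT. HEBKO 1 was the lowest array and HEBKO 2 lay at the lower edge of the WT values, and Mga was at -0.34 ± 0.15 in HEBKO against WT (limma adjusted p = 0.263) and at -0.57 ± 0.16 in HEBKO against E2AKO (limma adjusted p = 0.129).

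Max, the partner of Myc, Mycn, the Mxd proteins, Mnt and Mga, read 9.55, 9.56 and 9.40 in DKO, 9.25 and 9.38 in HEBKO, 9.43 and 9.09 in E2AKO and 9.32, 9.43 and 9.20 in WT. The DKO and WT values overlapped, with a difference of 0.18 ± 0.11 (-0.06 to 0.43; limma adjusted p = 0.343) that passed only when arrays were weighted by their quality (0.28, limma adjusted p = 0.0373). Mycn, the Myc relative used earlier in thymocyte and progenitor development, read 6.85, 7.01 and 6.70 in DKO, 7.02 and 7.08 in HEBKO, 6.94 and 6.74 in E2AKO and 7.35, 6.88 and 7.06 in WT. It overlapped between DKO and WT at -0.25 ± 0.13 (-0.53 to 0.04; limma adjusted p = 0.265). Mlx, the partner of the Mondo proteins, lay between 9.33 and 9.62 over all 10 arrays, with differences from WT of -0.07 in DKO, 0.04 in HEBKO and -0.05 in E2AKO.

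**Figure D4:**
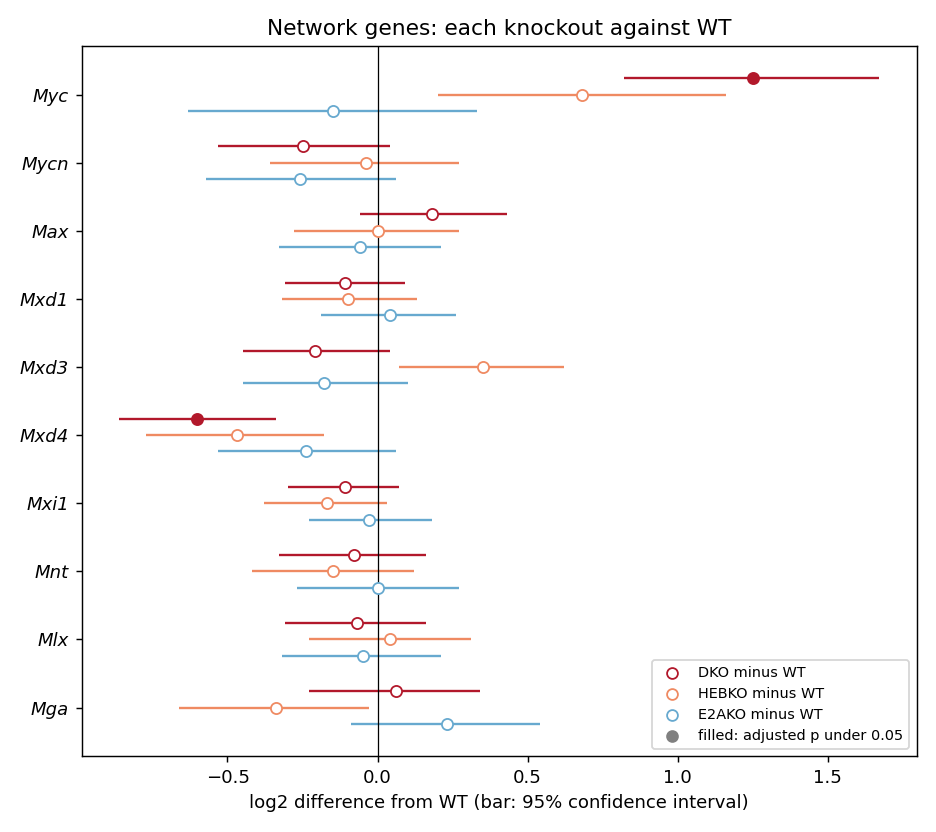
Log2 difference from WT (horizontal axis) of each network gene in DKO, HEBKO and E2AKO, with 95% confidence intervals as bars; filled points passed limma at an adjusted p under 0.05. Myc (1.25) and Mxd4 (-0.60) in DKO are the filled points, and the HEBKO points of both genes lie on the same side of 0 as the DKO points.

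No member passed the test in either single knockout against WT. The targeted genes did not pass there either. Tcf3 was at -0.54 ± 0.13 in E2AKO (limma adjusted p = 0.998) and Tcf12 at -0.52 ± 0.12 in HEBKO (limma adjusted p = 0.0657). A member not called in these comparisons is therefore not shown to be unchanged. In HEBKO against WT, 0 of 10 members were called by limma, beside 0.906% of all genes, and 4 of 10 (Myc, Mxd3, Mxd4 and Mga) were at an unadjusted p under 0.05. In E2AKO against WT, 0 of 10 were called, beside 0% of all genes, and 0 were at an unadjusted p under 0.05. For HEBKO against E2AKO the count was 0 of 10, beside 0.0381% of all genes, with 3 at an unadjusted p under 0.05 (Myc, Mxd3 and Mga), and for the interaction 0 of 10, beside 0.632%, with 1 (Myc). The comparisons with WT share the same 3 WT arrays, and the E2AKO and HEBKO groups hold 2 arrays each.

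The genes most like Myc over the 10 arrays were Pde7a, a cyclic AMP phosphodiesterase, Anxa6, a calcium-dependent membrane-binding protein, Flt3l, a cytokine of blood cell progenitors, Tes, a focal adhesion protein, and Bzw2. Likeness was the root mean square distance between the 2 genes' log2 values after each was centred on its WT mean, and it ran from 0.175 for Pde7a to 0.242 for Bzw2. Pde7a read 10.23, 9.93 and 10.44 in DKO, 9.30 and 9.22 in HEBKO, 8.98 and 8.58 in E2AKO and 8.48, 9.12 and 8.70 in WT. Like Myc, Pde7a was lowest of the DKO arrays in DKO 2 and lowest of the WT arrays in WT 1. The 5 genes were picked for nearness to Myc over these same 10 arrays, so such matches and similar differences follow from the selection. The differences of the 5 genes in DKO against WT were 1.43 ± 0.17 for Pde7a, 1.06 ± 0.14 for Anxa6, 1.17 ± 0.16 for Flt3l, 1.14 ± 0.16 for Tes and 1.16 ± 0.11 for Bzw2.

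Promoter sequences were available from RefSeq for 9 of the 10 members, in 11 windows of 300 bases that run from 250 before to 50 after a start. The member without a window is Myc, so its promoter was not searched, and Mxi1 holds 3 of the 11 windows. CACGTG, which reads the same on both strands, was present in 4 of the 11 windows, beside 7.2% of 32851 windows of all genes. The 4 sites are printed with 10 bases on either side, since they are the sequence that the network's own dimers bind, with the motif in capitals.
Mxd4 (chr5:34187914-34187939, minus strand): gctgggccacCACGTGctgttgctaa
Mnt (chr11:74830791-74830816, plus strand): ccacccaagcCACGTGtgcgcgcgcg
Mlx (chr11:101087240-101087265, plus strand): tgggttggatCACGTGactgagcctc
Max (chr12:76962236-76962261, minus strand): tgagcccggtCACGTGttagggggcc
The matches began 219, 123, 40 and 3 bases before the start, in the order printed. Of the 4 genes, Mxd4 passed the test in DKO and Mnt, Mlx and Max did not. The E-box forms that E2A and HEB prefer were searched in the same windows on both strands. CAGGTG or its reverse complement CACCTG was in 0 of the 11 windows, beside 20.2% of all windows, and CAGCTG was in 1 of 11 (Mga, at position 24 from the start), beside 16.3%. These are matches of letters in short windows, which hold no distal enhancer.

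Genes that Myc is known to activate were examined next, from lists drawn up for this network. Of 33 tested genes of ribosome biogenesis, 17 were higher and 0 lower in DKO than in WT, with a median of 0.41 beside -0.01 over all genes. Of all genes tested, 8.18% were called higher and 5.41% lower. Polr1b and Polr1a, the 2 largest subunits of RNA polymerase I, rose by 1.00 ± 0.17 (limma adjusted p = 0.00205) and 0.76 ± 0.13 (limma adjusted p = 0.00252). Nop10, a protein of the snoRNPs that guide pseudouridylation, rose by 0.90 ± 0.13 (limma adjusted p = 0.000903), and Mybbp1a, a nucleolar protein, by 0.72 ± 0.15 (limma adjusted p = 0.00940), a call lost without WT 3 (adjusted p = 0.0513). Polr1b read 8.08, 8.07 and 8.15 in DKO, 7.78 and 7.65 in HEBKO, 7.39 and 6.71 in E2AKO and 7.01, 7.40 and 6.89 in WT. All DKO values stood above all others, and both HEBKO values above all E2AKO and WT values. The count of higher genes was 9 without WT 3 and 10 without DKO 3.

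In HEBKO against WT, 0.906% of all genes were called. The ribosome list stood high in HEBKO too, at a median of 0.33 with 32 of 33 genes positive, although 1 gene passed the test, Nop10 at 0.97 ± 0.15 (limma adjusted p = 0.0193). Its count in HEBKO rested on single arrays, with 12 genes higher without WT 2 and 0 without WT 1, WT 3 or either HEBKO array; it was 8 with array weights. By array the list median was 0.46, 0.39 and 0.49 in DKO 1 to 3, 0.41 and 0.33 in HEBKO 1 and 2, 0.18 and -0.04 in E2AKO 1 and 2, and -0.11, 0.21 and -0.11 in WT 1 to 3. All 5 arrays lacking HEB lay above all 5 that kept it, a split that was not tested. For DKO against HEBKO the list median was 0.03, with 0 genes past the test by limma and 2 at an unadjusted p under 0.05. Against E2AKO, 9 of the 33 genes were higher in DKO and 0 lower (median 0.37), beside 9.07% of all genes called in either direction.

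Of 29 tested genes of growth and metabolism, 8 were higher and 1 lower in DKO than in WT (median 0.16), beside 8.18% and 5.41% of all genes. Shmt2, a mitochondrial enzyme of serine and folate metabolism, rose by 0.86 ± 0.15 (limma adjusted p = 0.00241). The mitochondrial chaperonin genes Hspe1 and Hspd1 rose by 0.78 ± 0.16 and 0.75 ± 0.16, Hspd1 losing its call without WT 3 (limma adjusted p = 0.0535), and Nme2, a nucleoside diphosphate kinase, by 0.66 ± 0.12. The 1 lower gene, named after its value was seen, was Prps2, an enzyme of nucleotide synthesis, at -0.42. In HEBKO, where 0.906% of all genes were called, the list median was 0.44, with 3 genes higher and 0 lower. They were Shmt2 at 0.90 ± 0.17 (limma adjusted p = 0.0316), the cell cycle kinase gene Cdk4 at 0.73 (limma adjusted p = 0.0483) and the lactate transporter gene Slc16a1 at 0.56 (limma adjusted p = 0.0316), the last 2 named after their values were seen. For DKO against HEBKO the list median was -0.10, with 22 of 29 genes negative and 7 positive. There, 0 genes were called higher and 1 lower, beside 3.63% of all genes called in either direction. The DKO count was 13 with array weights, and 5, 3, 4 and 5 without WT 1, WT 3, DKO 1 and DKO 2; the HEBKO count was 9 without WT 2, 6 with array weights, 1 without DKO 3 and 0 without WT 1, WT 3, DKO 2 or either HEBKO array.

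CACGTG was in 6 of 36 promoter windows of the ribosome list (16.7%) and in 9 of 37 of the growth list (24.3%), beside 7.2% of all windows. These windows came from 29 and 27 genes, so some genes count more than once. Over the other lists the share ran from 0.0% of 11 windows (genes repressed through Miz1) to 25.0% of 8 windows (Mondo and Mlx targets). A list on repression by Myc through the zinc finger protein Miz1 held 8 tested genes, 7 known as repressed this way and Zbtb17, which encodes Miz1 itself. By sign alone, 7 of the 8 were negative against WT in DKO, 7 in E2AKO and 3 in HEBKO. Of the 8, 1 was called higher and 0 lower in DKO (median -0.12), beside 8.18% and 5.41% of all genes. The 1 was Ndrg2, at 0.48 ± 0.13 (limma adjusted p = 0.0317), the opposite side from repression, and leaving out any single DKO or WT array ended the call.

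**Figure D5:**
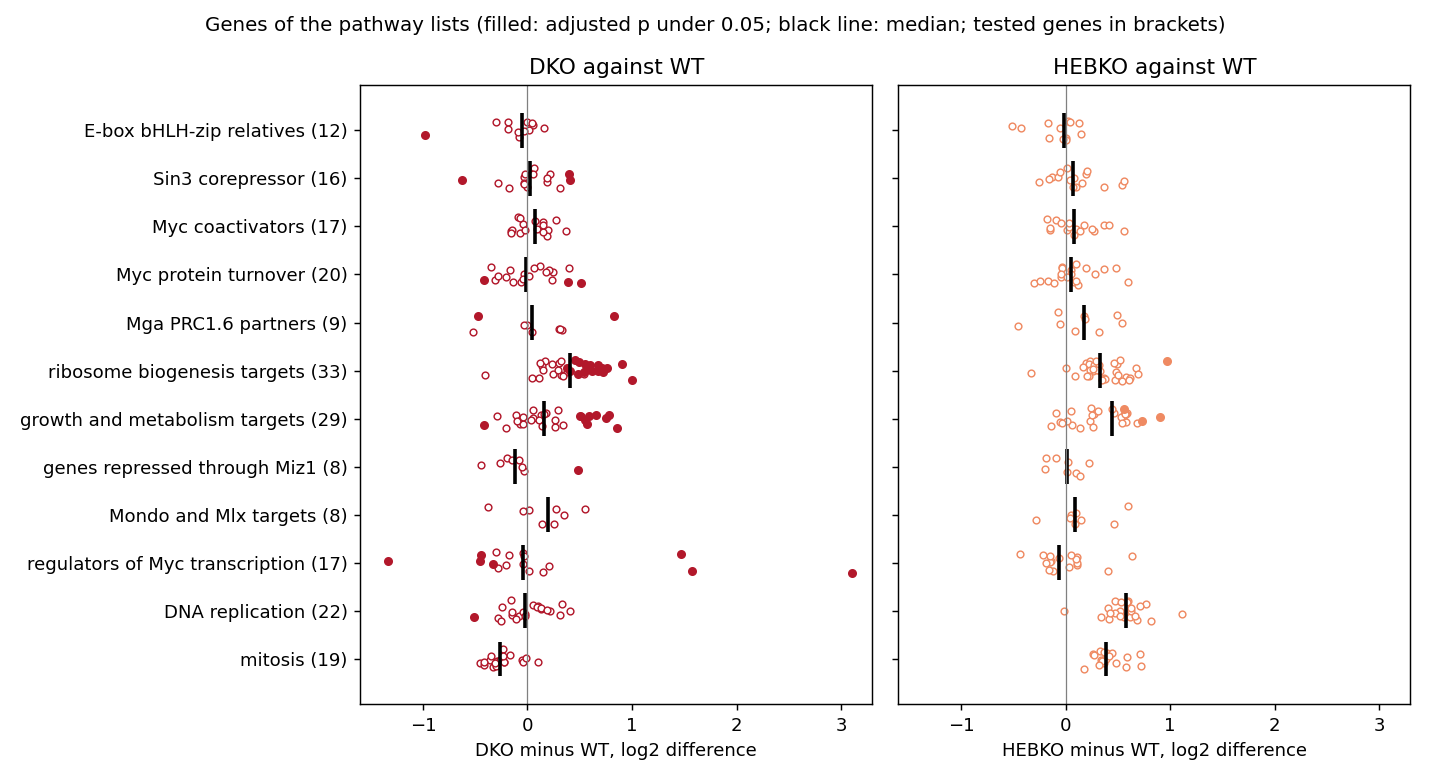
Log2 difference from WT (horizontal axes) of each tested gene of 12 lists, in DKO (left) and HEBKO (right); filled points passed limma at an adjusted p under 0.05, black lines are list medians and tested genes are counted in brackets. In both panels 32 of 33 ribosome biogenesis genes lie to the right of 0 (medians 0.41 and 0.33), while replication and mitosis genes lie to the right in HEBKO (0.57 and 0.39) but not in DKO (-0.02 and -0.26).

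Partners that carry out repression and activation were examined beside the 13.6% of all genes called in DKO against WT. Of 16 tested Sin3 corepressor genes, 2 were higher and 1 lower in DKO (median 0.03). Sin3b, the scaffold protein that Mxd proteins bind, was at -0.63 ± 0.16 (limma adjusted p = 0.0250), and the Sin3 subunit genes Rbbp7 and Arid4a were at 0.41 ± 0.11 and 0.40 ± 0.10. Sin3b read 9.28, 9.51 and 9.51 in DKO, 9.52 and 10.11 in HEBKO, 9.98 and 9.69 in E2AKO and 10.01, 10.33 and 9.86 in WT. Each of these 3 calls was lost in 5 of 20 alternatives, Sin3b without WT 1, WT 2 or any 1 DKO array (adjusted p = 0.0539 to 0.0805).

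Of 17 tested coactivator genes, 0 passed in DKO by limma, with 2 at an unadjusted p under 0.05 (median 0.07). The largest differences were in Kat2a, a histone acetyltransferase, at 0.37 ± 0.14 (limma adjusted p = 0.102) and Actl6a, an actin-related subunit of chromatin complexes, at 0.27 ± 0.12 (limma adjusted p = 0.191). Beside 8.18% higher and 5.41% lower among all genes, 2 of 20 tested genes that act on Myc protein turnover were higher and 1 was lower (median -0.01). They were Bin1, a protein that binds Myc, at 0.51 ± 0.11, the deubiquitinase gene Usp28 at 0.39 ± 0.11 and the ubiquitin ligase gene Fbxl14 at -0.42 ± 0.09. The Usp28 call was lost in 6 of 20 alternatives, and the calls of Bin1 and Fbxl14 without WT 3.

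Among 9 partners of Mga in its Polycomb complex, 1 was higher and 1 lower in DKO (median 0.04), beside 8.18% and 5.41% of all genes. E2f6, which brings the complex to DNA, rose by 0.83 ± 0.16 (limma adjusted p = 0.00546), at 8.14, 8.14 and 8.05 in DKO and 7.92 and 7.72 in HEBKO, against 7.64 and 6.91 in E2AKO and 7.19, 7.49 and 7.17 in WT. L3mbtl2, a subunit that compacts chromatin, was at -0.47 ± 0.11 (limma adjusted p = 0.0123) and did not pass without DKO 2. Of 12 other E-box factors, 1 was lower, beside 5.41% of all genes. It was the circadian factor gene Arntl, which fell by 0.98 ± 0.10 (limma adjusted p = 7.77e-05). Arntl read 9.26, 9.47 and 9.37 in DKO and 9.69 and 9.98 in HEBKO, against 10.29 and 10.46 in E2AKO and 10.34, 10.34 and 10.37 in WT, with both HEBKO values between those of DKO and the rest. Of 8 tested genes that Mondo and Mlx control, 0 passed by limma, with 3 at an unadjusted p under 0.05 (median 0.19). The largest differences were in Acaca, an enzyme of fatty acid synthesis, at 0.55 ± 0.18 (limma adjusted p = 0.0655) and Klf10 at -0.38 ± 0.12 (limma adjusted p = 0.0655).

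Genes reported to act on Myc transcription moved in both directions in DKO, with 3 higher and 4 lower of 17 tested (median -0.04). Of all genes tested, 13.6% were called there. Il7r, the interleukin 7 receptor gene, read 8.55, 8.55 and 9.12 in DKO, 6.90 and 5.64 in HEBKO, 5.87 and 6.54 in E2AKO and 5.22, 6.00 and 5.69 in WT. These signals were under the array's 40th percentile in 1 HEBKO, 1 E2AKO and all 3 WT arrays, so its fitted rise of 3.10 ± 0.31 is near background on the WT side, and Il7r is also 1 of the mature T cell markers above. Foxo1, a factor that acts on Il7r, rose by 1.47 ± 0.19 (limma adjusted p = 0.000297) and the Notch target Dtx1 by 1.57 ± 0.14 (limma adjusted p = 2.97e-05), and Bcl6, a repressor, fell by 1.33 ± 0.17 (limma adjusted p = 0.000285). Foxo1 read 9.95, 9.77 and 10.25 in DKO, 8.86 and 8.29 in HEBKO, 8.64 and 8.30 in E2AKO and 8.72, 8.65 and 8.19 in WT. All 3 DKO values stood above the rest, and Foxo1 in HEBKO differed from WT by 0.05 ± 0.21. The other 3 lower genes, named after their values were seen, were Notch3 at -0.45 and the interleukin 7 signal transducers Stat5a at -0.44 and Stat5b at -0.33. The lower count was 7 with array weights and 2 without WT 3, DKO 2 or DKO 3. In HEBKO against WT, 0 of the 17 passed by limma and 2 were at an unadjusted p under 0.05.

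The lists of cell division were near or below WT in DKO and above WT in HEBKO by their medians. Of 22 replication genes, 0 were higher and 1 lower in DKO, beside 8.18% and 5.41% of all genes. The lower gene was Gins2, a subunit of the replicative helicase, at -0.51 ± 0.13 (limma adjusted p = 0.0203), a call lost in 4 of 20 alternatives. Of 19 mitosis genes, 0 passed in DKO by limma and 2 were at an unadjusted p under 0.05 (median -0.26), Ccna2 (cyclin A) at -0.45 ± 0.20 and the proliferation marker gene Mki67 at -0.42 ± 0.16. In HEBKO the medians were 0.57 for replication and 0.39 for mitosis, with 0 genes called by limma in either list and 17 and 4 at an unadjusted p under 0.05. The share of all genes at that unadjusted threshold was not computed.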

How the data were processed

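RNA of sorted DP thymocytes from 10 mice was hybridised to 1 Affymetrix array each; per the labels, about 1000000 cells were sorted per sample at over 98% purity and 6 µg of RNA was labelled. The deposited intensity values are on a linear scale and were made with RMA per the submitters' processing notes, with no version stated; they were turned to log2 with no constant. Of 34760 probe sets, 21640 carried 1 gene symbol in the platform annotation, 1321 several and 11799 none, and only the first kind was used. Each gene took its probe set with the highest mean, and genes that reached an array's 40th percentile on 2 or more arrays were tested. The model, run in limma 3.58.1 (R 4.3.3, statmod 1.5.0), took all 10 arrays and gave each of the 4 genotypes its mean, with empirical Bayes moderation (6 residual and 5.68 prior degrees of freedom, median SD 0.14) and two-sided p-values adjusted by Benjamini-Hochberg over all 13138 genes. Calls are at an adjusted p under 0.05, and the steps were tested on simulated data. Shares of all genes called are at that adjusted threshold, and none was computed for the counts at an unadjusted p. The number of arrays limits the precision. Array medians were 92.6 to 98.6, no 2 arrays were identical, and every genotype held both sexes, by Xist and Y-linked genes.

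Members and the 12 gene lists (229 genes, 210 tested) were chosen with earlier results of these data known. Named are all members, Tcf3 and Tcf12, per list up to 4 genes with the largest difference among those called in DKO against WT (the 2 largest where none was called), and the 5 genes nearest to any member called at 2-fold or more; clones and predicted genes were passed over. Alternatives were other intensity filters, renewed quantile normalization, a shift to 1 median, averaging over probe sets, trend and robust moderation, array weights, fits limited to the groups compared, a replicate block, a term for sex, and each array left out in turn. No genome build is given in the sources used here, so gene positions come only from the RefSeq promoter table.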

Additional observations from a re-analysis of the deposited data

Results flagged for a closer look

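Of the network members and the genes named from the lists, Dtx1, a Notch target, departed from additivity of the single knockouts. Its interaction (DKO - E2AKO - HEBKO + WT) was 1.50 ± 0.23 on the log2 scale (limma adjusted p = 0.00979), and 0.632% of all genes were called for it. Foxo1 at 1.47 ± 0.30 (limma adjusted p = 0.0545) and Il7r at 1.90 ± 0.49 (limma adjusted p = 0.147) had similar or larger interactions that did not pass. Dtx1 read 9.11, 8.58 and 8.64 in DKO, 7.43 and 7.21 in HEBKO, 7.19 and 7.13 in E2AKO and 7.39, 7.16 and 7.07 in WT. All 3 DKO values lay above the rest, while HEBKO differed from WT by 0.11 ± 0.16 and E2AKO by -0.05 ± 0.16.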

How the results depend on the processing

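Myc and Mxd4 passed the test in DKO against WT in all 20 alternatives (1.05 to 1.43, adjusted p = 0.000246 to 0.00832, and -0.67 to -0.52, adjusted p = 0.000517 to 0.0274), and Myc did so in DKO against E2AKO in all 20 (1.23 to 1.58). The number of members called was 2 to 3 in DKO against WT and 0 to 1 in DKO against HEBKO, where Mxd3 kept its call in 14 of 20 alternatives (adjusted p = 0.0227 to 0.17). It stayed at 1 in DKO against E2AKO and at 0 in the other comparisons in every alternative run. The interaction has no fit on only the groups compared. Where an array was left out of a group of 2, the lone array was assumed to vary like the other groups. Mycn had no value in DKO against WT under the 60th percentile filter, which left it out. The number of genes called in DKO against WT was 3655 with array weights, 991 without WT 3, 1127 without DKO 2 and 1037 without DKO 3, beside 1786.

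The replicate numbers were used as a block in 1 alternative. Of 13 pairs of arrays with the same number, 10 had deviations correlated above 0.1 (range -0.29 to 0.48, beside -0.48 to 0.41 for other pairs). The other pairs above 0.1 were not counted. Deviations were taken from genotype means, so the arrays of a genotype with 2 mirror each other and the pairs are not separate observations. The labels do not say that arrays of the same number belong together, so the main fit has no block. Whether such arrays share an effect was not tested. With the replicate block, 2 members were called in DKO against WT (Myc 1.25, Mxd4 -0.60) and 1 in DKO against HEBKO, the same calls, and 2321 genes in all were called in DKO against WT.

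Differences near 0 that were never called turned sign, and the cause was not tested. With array weights, Mlx was at 0.07 in DKO and in E2AKO against WT and at 0.01 in DKO against E2AKO, and Max at 0.07 in HEBKO and 0.02 in E2AKO against WT. With arrays shifted to 1 median, HEBKO against WT gave 0.01 for Mycn and 0.04 for Max, and E2AKO against WT 0.01 for Mnt. Renewed quantile normalization gave 0 for Mlx in HEBKO and for Mxd1 in E2AKO against WT, and the term for sex 0 for Mnt in E2AKO against WT. The replicate block gave 0.02 for Mxd3 and for Mlx in DKO against E2AKO and 0.01 for Mlx in the interaction. With single arrays left out, the ranges in DKO against WT were 0 to 0.13 for Mga. In HEBKO against WT they were -0.15 to 0.08 for Mycn, -0.07 to 0.06 for Max, -0.23 to 0.04 for Mxd1 and -0.05 to 0.10 for Mlx. In E2AKO against WT they were -0.34 to 0.02 for Myc, -0.23 to 0.11 for Max, -0.06 to 0.01 for Mxi1, -0.09 to 0.07 for Mnt and -0.17 to 0.06 for Mlx. In DKO against HEBKO they were -0.15 to 0.12 for Mxd1, -0.34 to 0.08 for Mxd4 and -0.04 to 0.16 for Mnt, and in DKO against E2AKO -0.09 to 0.11 for Mycn, -0.20 to 0.14 for Mxd3 and -0.14 to 0.10 for Mlx. In HEBKO against E2AKO they were -0.11 to 0.22 for Max and -0.02 to 0.21 for Mlx. In the interaction they were -0.07 to 0.17 for Mycn, -0.18 to 0.08 for Mxd1, -0.10 to 0.32 for Mxd4, -0.04 to 0.17 for Mnt, -0.18 to 0.05 for Mlx and -0.06 to 0.41 for Mga.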
